A study of Mus musculus with 16 samples.

Results

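DN3 thymocytes of Lmo2-transgenic mice that lack p21 (Lmo2Tg;p21-/-) were compared with DN3 thymocytes of Lmo2-transgenic mice with intact p21 (Lmo2Tg). Libraries were assigned by genotype label, which gave 2 usable libraries of each genotype, 4 of the 16 samples in the series. The 2 Lmo2Tg;p21-/- libraries are replicates 1 and 2, hereafter p21-deficient Lmo2Tg. The 2 Lmo2Tg libraries are called A and B, because the short names of their columns are also the descriptions of 2 GFP-low samples of another experiment in the series, so that no column was tied to a single sample. They were taken as Lmo2Tg because their table holds the genotype libraries, whereas the GFP-low samples have columns of their own in a separate table. Expression of 11840 genes, of 22114 listed, was tested by poly-A RNA-seq. Libraries of p21-/- mice (n = 2) and wild-type mice (n = 3) without the transgene were the reference for what p21 loss did in normal DN3 cells. The question was which gene programs depend on p21 in thymocytes that carry the oncogene.

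DN3 cells are T-cell progenitors that lack CD4 and CD8, rearrange the T-cell receptor beta locus and are selected by the pre-T-cell receptor. LMO2 is a LIM-domain adaptor of haematopoietic stem cells that joins DNA-binding proteins such as TAL1 and LYL1, and its persistent expression gives thymocytes the capacity to self-renew before T-cell leukaemia appears. p21, encoded by Cdkn1a, is a cyclin-dependent kinase inhibitor that p53 induces, and it restrains the cell cycle.

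All mice were of a C57BL/6J background after 10 generations of backcrossing and were 6 weeks old. The Lmo2 transgene was driven by the CD2 promoter, which is active from early thymocytes onwards, and the p21 allele was a germline knockout, so that p21 was missing from every cell type. Each library came from DN3 cells sorted from a pool of 3 to 5 mice, and p-values therefore measure the spread between pools. Libraries held 13864936 to 16837667 counts and 13639 to 14145 genes with a count, so 3 counts corresponded to 0.176 to 0.222 CPM (counts divided by the scaled library size). All levels below are CPM after TMM scaling of library sizes, and differences are log2 fold changes with their standard errors. Adjusted p-values are from edgeR's quasi-likelihood test fitted on the 9 genotype libraries, with Benjamini-Hochberg adjustment over all 11840 genes, and a gene was called at 0.05. The 8 DN3 markers examined, which include Ptcra and Il2ra, were all expressed, with a summed level of 3894 to 4193 CPM in p21-deficient Lmo2Tg and 3762 to 4265 CPM in Lmo2Tg cells, and none was called. Y-linked transcripts summed to 271 to 442 CPM in the 4 transgenic libraries, but to 0.410 CPM in p21-/- replicate 1 and 0.544 CPM in wild-type replicate 3. In sorted bulk samples, fewer cells of a type and less RNA per cell cannot be told apart.

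Cdkn1a (ENSMUSG00000023067, mm10 chromosome 17, 29090976 to 29100727) followed the genotype labels. It was at 4.35 and 3.50 CPM in p21-deficient Lmo2Tg libraries and at 32.8 and 26.3 CPM in Lmo2Tg libraries. Without the transgene it was at 14.3 and 17.7 CPM in p21-/- cells and at 36.5, 37.5 and 49.0 CPM in wild-type cells. Every p21-deficient library was below every library with intact p21, although reads from the locus remained. The difference was -2.92 ± 0.21 with the transgene (adjusted p = 9.08e-05) and -1.36 without it (adjusted p = 0.00821), and the 2 differences were themselves different (interaction -1.56 ± 0.27, adjusted p = 0.0319).

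p21 loss in Lmo2Tg cells altered 822 genes, 6.94% of those tested. Of these, 397 were higher (3.35% of those tested) and 425 were lower (3.59%). Larger changes were mostly decreases: 222 genes (1.88%) were called with more than a 2-fold change, and 171 of them were lower (1.44%) against 51 higher (0.431%). At a stricter threshold of 0.01, 172 genes (1.45%) were called. The median log2 fold change of all genes was 0.02. The number of calls depended on single libraries. It was 60 without p21-deficient Lmo2Tg replicate 1, 272 without replicate 2, 514 without Lmo2Tg library A, 293 without library B, and 519 and 516 without wild-type replicates 1 and 2, which enter only through the shared spread. All 822 called genes kept their direction when any single library was left out. They were called on these same libraries, so this is no independent support. The libraries without the transgene are on neither side of the comparison.

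**Figure D1:**
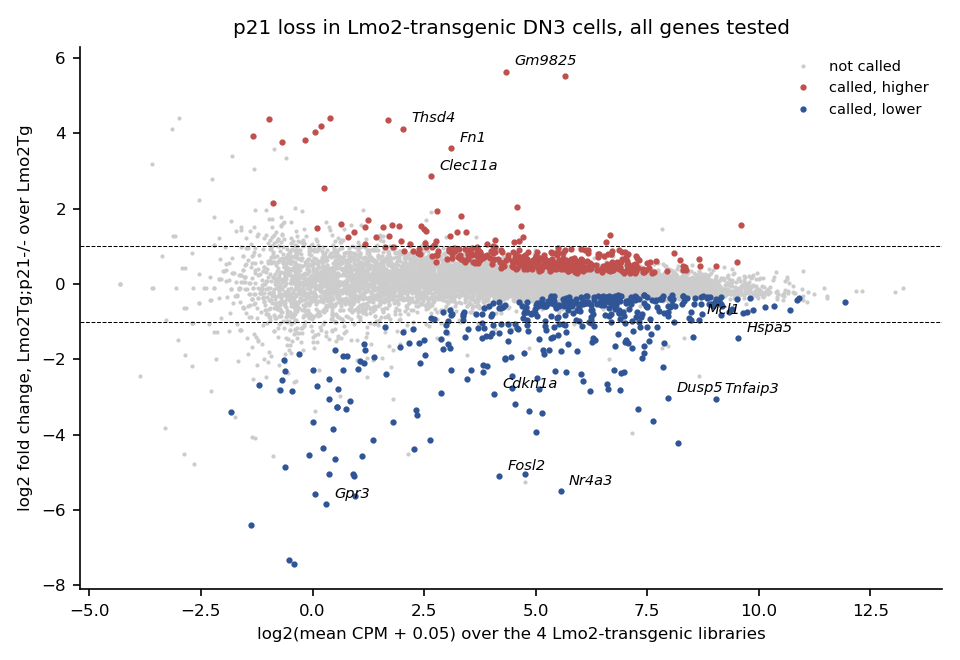
Each point is a gene, with its log2 mean CPM over the 4 Lmo2-transgenic libraries on the x axis and its log2 fold change, p21-deficient Lmo2Tg against Lmo2Tg, on the y axis. Coloured points are the 822 called genes, dashed lines mark a 2-fold change, and beyond those lines more points lie below (171) than above (51).

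Ranked by fold change among called genes that averaged at least 1 CPM and whose libraries did not overlap, the top falls included transcription factors of the immediate-early response and several receptors and secreted factors. Nr4a3, an orphan nuclear receptor induced by receptor signalling, was at 1.71 and 2.29 CPM in p21-deficient Lmo2Tg cells and at 145 and 39.7 CPM in Lmo2Tg cells (log2 fold change -5.50 ± 1.16, adjusted p = 0.0218). Fosl2, an AP-1 subunit, was at 1.36 and 0.725 CPM against 50.7 and 19.6 CPM (-5.09 ± 0.98, adjusted p = 0.0154). For both genes the Lmo2Tg libraries differed from each other by more than 2-fold and yet lay far above both p21-deficient libraries. Baiap3, which lies 3.85 Mb from Cdkn1a on the same chromosome, was at 1.36 and 1.75 CPM against 58.4 and 46.6 CPM (-5.06 ± 0.65, adjusted p = 0.00308). Without the transgene it was at 13.1 and 1.52 CPM in p21-/- and at 58.8 to 60.1 CPM in wild-type cells. That difference did not pass the test (-3.00, adjusted p = 0.0613).

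The other 7 largest falls were of genes with at most 5 reads in the p21-deficient Lmo2Tg libraries together, and they are given by raw reads with 95% counting intervals. Gpr3, a constitutively active G-protein-coupled receptor, had 0 and 1 reads in p21-deficient Lmo2Tg against 39 and 26 reads in Lmo2Tg libraries, a ratio of 70.6 (12.2 to 2831). Mchr1, the receptor for melanin-concentrating hormone, had 1 and 2 reads against 48 and 54, a ratio of 36.9 (12.3 to 182). Cxcl10, a chemokine induced by interferon, had 2 and 3 reads against 57 and 56, a ratio of 24.6 (10.2 to 77.1). Apol8, Ramp3, Gcnt3 and Slc35d3 showed the same contrast, with ratios of 55.4, 35.1, 36.4 and 27.2 and lower limits of 14.95, 11.7, 9.69 and 8.94. Adjusted p-values of these 7 genes ran from 0.00800 (Mchr1) to 0.0425 (Slc35d3). That the libraries of the 2 genotypes did not overlap was required by the ranking rule.

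The largest rise was of a different kind. Gm9825, a processed pseudogene on chromosome 6, was at 38.3 and 40.6 CPM against 0.814 and 0.752 CPM (5.64 ± 0.20, adjusted p = 1.69e-07). It is a near-identical copy of Rnps1, a gene near Cdkn1a, and the pair is described with that chromosome.

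Other large rises included guidance, matrix and growth-factor genes. Neo1, which encodes the netrin and RGM receptor neogenin, was at 7.85 and 4.23 CPM against 0.148 and 0.410 CPM (4.37 ± 0.49, adjusted p = 0.00177). Thsd4, an ADAMTS-like matrix protein gene, was at 7.07 and 8.09 CPM against 0.370 and 0.479 CPM (4.13 ± 0.46, adjusted p = 0.00171). Neo1 and Thsd4 lie near each other on chromosome 9 (58874687 to 59036441 and 59966931 to 60522046). Whether their rises are independent was not tested. Both genes were at or below 0.234 CPM in every library without the transgene. Fn1, fibronectin, was at 11.6 and 19.99 CPM against 2.22 and 0.410 CPM (3.61 ± 0.70, adjusted p = 0.0156), and it was also at 8.09 and 8.99 CPM in p21-/- cells against 0.544 to 4.45 CPM in wild-type cells, a difference that did not pass the test (1.79, adjusted p = 0.984).

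Clec11a, a secreted growth factor for haematopoietic and bone progenitors, was at 13.2 and 8.82 CPM in p21-deficient Lmo2Tg cells and at 1.48 and 1.504 CPM in Lmo2Tg cells (2.87 ± 0.26, adjusted p = 0.000427). It was at 5.19 to 6.45 CPM in all 5 libraries without the transgene, so the transgenic groups lay on either side of the normal level. Zfp760, a zinc-finger gene 7.38 Mb from Cdkn1a on chromosome 17, was at 45.03 and 32.4 CPM against 11.6 and 7.04 CPM (2.05 ± 0.27, adjusted p = 0.00324). Its neighbour Zfp229 rose by 1.55 (adjusted p = 0.00469). For both genes p21 loss and linkage to the targeted allele cannot be told apart. C4b, a complement gene also on chromosome 17, had 27 and 48 reads against 3 and 0 (ratio 23.0, 7.58 to 114). The C4b reads are uncertain because C4a is 95.97% identical. Alox15, a lipoxygenase gene, had 18 and 47 reads against 2 and 1 (ratio 19.95, 6.53 to 99.2), and Vill, a villin-like gene, was at 2.21 and 1.69 CPM against 0.666 and 0 CPM (adjusted p = 0.0496).

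**Figure D2:**
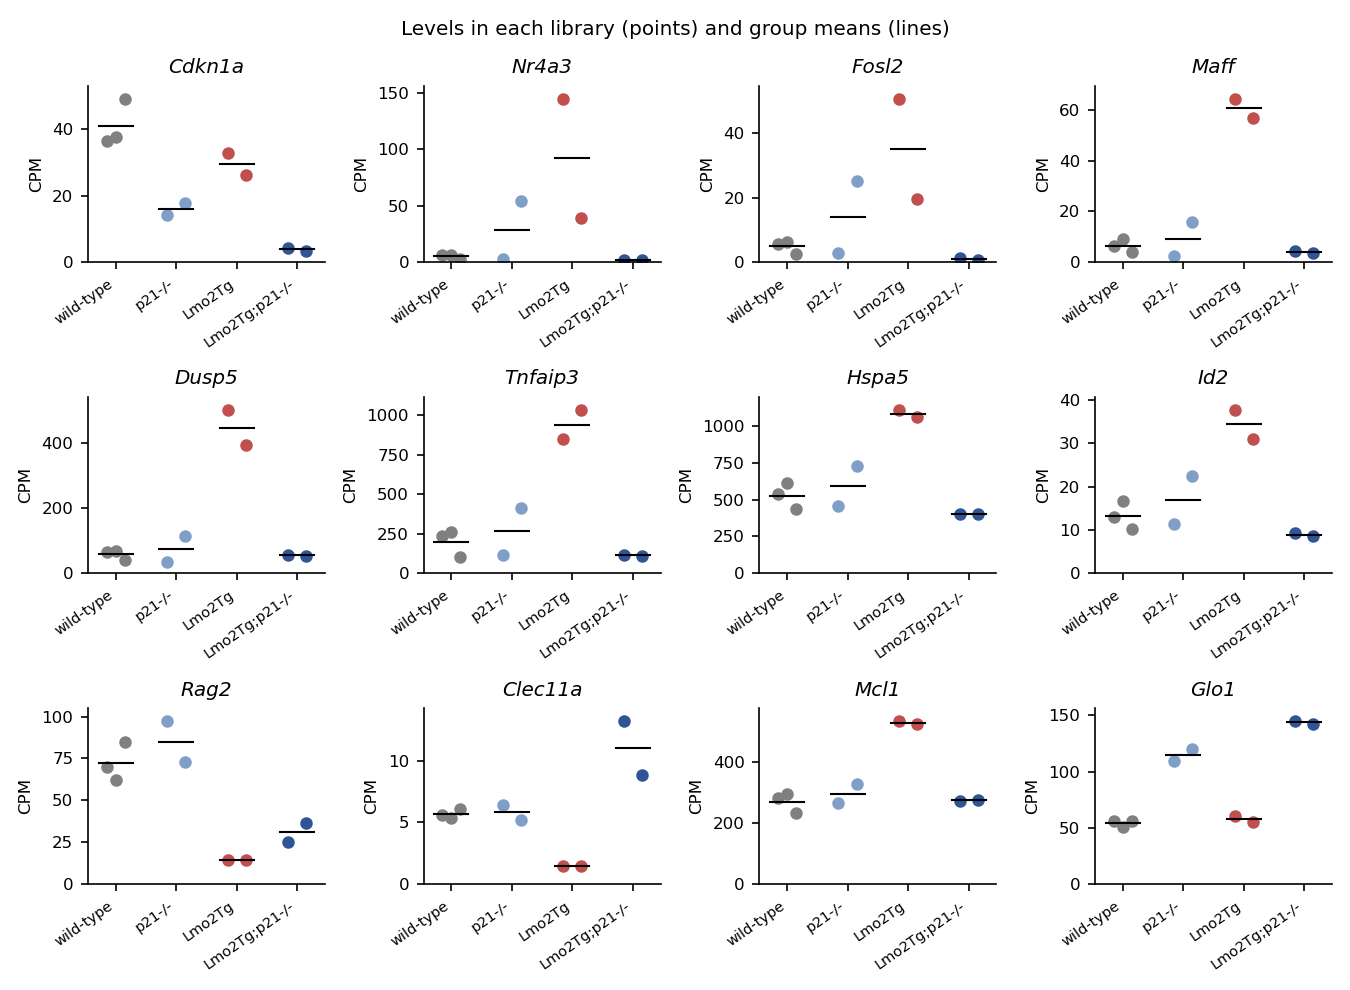
CPM (linear axis from 0) of a gene per panel in the 9 genotype libraries, with a point per library and a line at the group mean. Nr4a3, Fosl2, Maff, Dusp5, Tnfaip3, Hspa5 and Id2 are higher in Lmo2Tg than in p21-deficient Lmo2Tg libraries, Rag2 and Clec11a are lower, and p21-/- replicate 2 lies apart from replicate 1 for Nr4a3 (54.6 against 2.93 CPM).

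Immediate-early transcription factors formed the list with the largest share of called genes. Their genes are transcribed within minutes of receptor, calcium or stress signals without new protein synthesis, and they pass those signals on to later target genes. All 28 listed members were tested. Of these, 17 (60.7%) were lower, 16 of them by more than 2-fold, and none was higher. The median log2 fold change of the 28 was -1.84, and 27 were negative. The list and the others below were chosen with results of these data known, and are described by counts and medians only. Over all genes tested the called share was 6.94%.

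The promoters of 2 immediate-early genes, Nr4a3 and Maff, and of Dusp5, a MAPK phosphatase described below, are shown as examples with the marked sites. The 3 genes are among the largest falls of their lists. Fosl2, which fell more than Maff, held no TGACGT in its listed promoter. Where several starts were listed, as for Maff (3), the window is the first that held the site. The sequences are the 250 bases before the RefSeq transcription start, GRCm38.p6, 5′ to 3′ in the direction of transcription, at chr4:48045055-48045304 (plus strand), chr15:79347270-79347519 (plus strand) and chr19:53528895-53529144 (plus strand). Capitals mark the core of the cyclic AMP response element, TGACGT on either strand, which CREB and ATF proteins bind. In Dusp5 capitals mark also the CArG box, the site of serum response factor.
Nr4a3: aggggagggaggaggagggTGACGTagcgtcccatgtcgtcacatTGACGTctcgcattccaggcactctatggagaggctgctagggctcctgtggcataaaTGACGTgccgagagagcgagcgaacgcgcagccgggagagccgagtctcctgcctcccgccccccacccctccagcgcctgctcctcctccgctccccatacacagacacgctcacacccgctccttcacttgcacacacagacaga
Maff: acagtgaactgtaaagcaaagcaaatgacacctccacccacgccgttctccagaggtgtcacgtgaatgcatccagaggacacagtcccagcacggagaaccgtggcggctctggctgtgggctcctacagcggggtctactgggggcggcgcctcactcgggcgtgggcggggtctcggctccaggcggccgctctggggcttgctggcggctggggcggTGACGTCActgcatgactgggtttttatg
Dusp5: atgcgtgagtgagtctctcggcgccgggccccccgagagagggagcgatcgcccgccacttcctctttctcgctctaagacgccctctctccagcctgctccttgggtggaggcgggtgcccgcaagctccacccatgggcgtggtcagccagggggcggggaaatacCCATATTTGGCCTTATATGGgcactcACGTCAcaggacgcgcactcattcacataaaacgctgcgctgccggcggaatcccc
The Nr4a3 window held 3 copies of TGACGT. In Maff the 2 copies overlapped on opposite strands as the full palindrome TGACGTCA. The Dusp5 window held 2 adjacent CArG boxes and the TGACGT core read on the opposite strand.

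Searched on both strands, TGACGT was found in the 250-base window of 7.29% of 27025 genes with a listed promoter and of 11.8% of the 9035 such genes that were tested. It was in 79 of 327 genes called lower (24.2%) and in 31 of 303 called higher (10.2%). The full palindrome TGACGTCA was in 3.1% of tested genes, 6.12% of those called lower and 2.31% of those called higher. Of the 13 called immediate-early genes with a listed promoter, 4 held TGACGT, namely Atf3, Egr2, Maff and Nr4a3. These are descriptions of letters in a window, and binding was not measured here.

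Maff, a small MAF transcription factor, was at 4.42 and 3.62 CPM in p21-deficient Lmo2Tg and at 64.3 and 56.96 CPM in Lmo2Tg libraries (-3.92 ± 0.60, adjusted p = 0.00589). Atf3, a stress-induced repressor, had 1 and 0 reads against 36 and 18 reads (ratio 58.7, 95% counting interval 10.1 to 2359, adjusted p = 0.0226). Klf4, Fosb and Junb did not pass the test, and their levels varied widely within the other genotypes. Klf4 was at 0.856 and 1.81 CPM against 49.0 and 55.9 CPM (-5.26 ± 1.46, adjusted p = 0.0568), with 0.242 to 31.2 CPM in wild-type libraries. The 11 members that were not called were Klf4, Egr4, Fosb, Junb, Egr3, Fos, Jun, Klf2, Fosl1, Srf and Myc.

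Summed over the list, immediate-early transcripts amounted to 1145 and 1343 CPM in p21-deficient Lmo2Tg, 3421 and 4957 CPM in Lmo2Tg, 1166 and 1972 CPM in p21-/- and 973 to 2423 CPM in wild-type libraries. Lmo2Tg libraries lay above all others, and the p21-deficient Lmo2Tg libraries lay within the range of the libraries without the transgene. The replicates of p21-/- differed for single members, with Fosl2 at 2.81 CPM in replicate 1 and 25.2 CPM in replicate 2. The number of members called lower fell to 2 without p21-deficient Lmo2Tg replicate 1, 5 without replicate 2 and 10 without Lmo2Tg library A, and the list median stayed between -2.20 and -1.65 in the 15 alternative analyses.

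**Figure D3:**
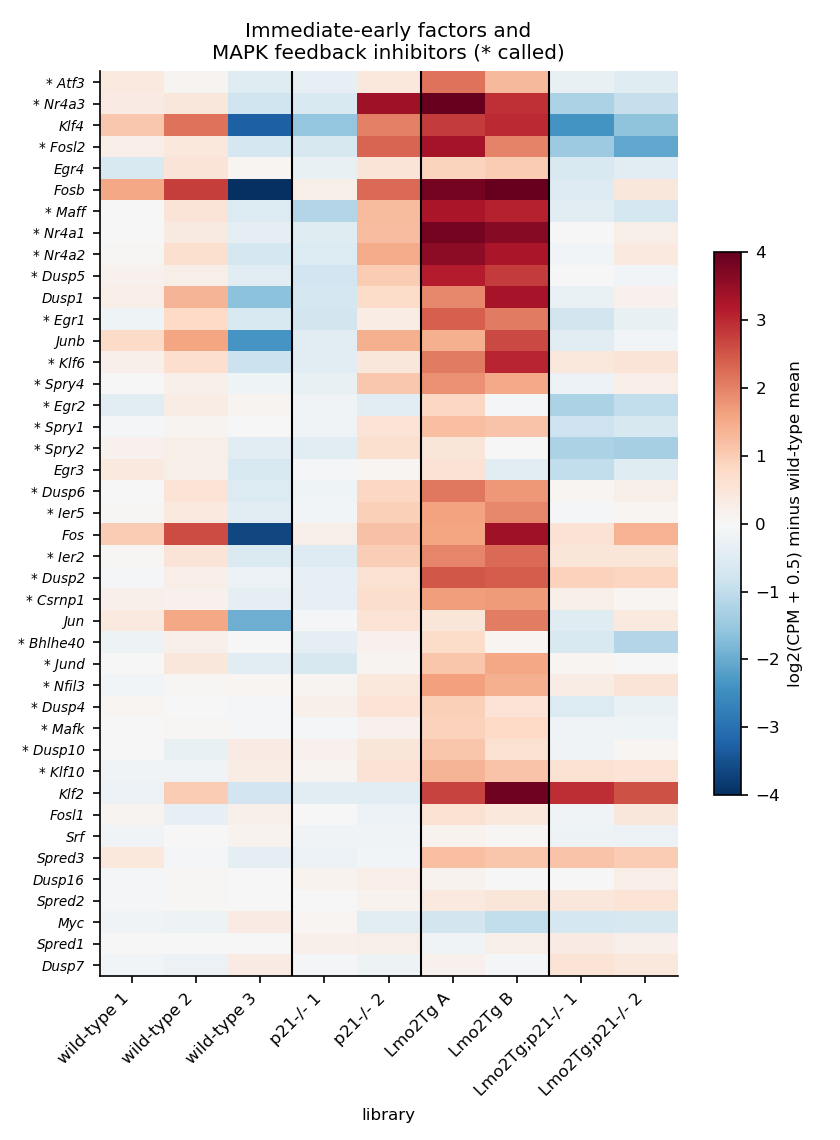
Heat map of the immediate-early transcription factors and MAPK feedback inhibitors (rows) in the 9 genotype libraries (columns), coloured by log2(CPM + 0.5) minus the wild-type mean, with the scale ending at 4 in either direction. A star marks a gene called between p21-deficient Lmo2Tg and Lmo2Tg, and the 2 Lmo2Tg columns are the highest for most starred genes.

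Inhibitors of MAPK signalling, which ERK activity induces and which in turn dampen it, fell as well. Of 14 tested, 8 (57.1%) were lower, 7 by more than 2-fold, and none was higher (median -1.37). Dusp5, a nuclear phosphatase of ERK, was at 57.1 and 51.8 CPM against 500 and 393 CPM (-3.04 ± 0.44, adjusted p = 0.00469). Spry1, an inhibitor of receptor tyrosine kinase signalling, was at 7.57 and 8.69 CPM against 32.4 and 31.0 CPM (-1.96 ± 0.21, adjusted p = 0.00113). Spry2 and Spry4, of the same family, were lower by -1.95 and -2.11 at levels under 5 CPM. Dusp5 and Spry1 overlap other annotated genes, whose reads may be counted with them. Leaving out 1 library gave between 1 and 9 members called lower.

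The NF-kB list, with the subunits of this inflammatory transcription factor and its targets, was divided. Of 22 tested members 31.8% were called. Of these, 6 were lower, all by more than 2-fold, and 1 was higher, and the list median was -0.19. Tnfaip3, which encodes the NF-kB inhibitor A20, was at 116 and 109 CPM in p21-deficient Lmo2Tg and at 845 and 1031 CPM in Lmo2Tg libraries (-3.06 ± 0.53, adjusted p = 0.00988). Nfkbiz, a nuclear cofactor of NF-kB, was at 18.9 and 19.7 CPM against 119 and 111 CPM (-2.57 ± 0.47, adjusted p = 0.0125). Both were picked as called members with large falls, so the gap between the genotypes follows from that choice. Their p21-deficient Lmo2Tg levels lay within the range of wild-type libraries, which was 102 to 264 CPM for Tnfaip3 and 6.77 to 24.0 CPM for Nfkbiz. Ccl4, a chemokine, fell from 3.402 and 6.91 CPM to 0.928 and 1.03 CPM (-2.39 ± 0.53, adjusted p = 0.0255), and Nlrp3, an inflammasome sensor, had 1 and 2 reads against 43 and 17 (ratio 21.7, 7.09 to 108). Without p21-deficient Lmo2Tg replicate 1, 0 members were called lower.

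The 4 NF-kB genes called lower that had a listed promoter, Nfkbia, Nfkbid, Nlrp3 and Tnfaip3, all held an NF-kB site in the 250 bases before the start, as did 8 of the 20 list members with a promoter and 7.13% of tested genes. Over all genes the site was about as frequent among those called lower (9.17%) as among those called higher (7.92%). The Tnfaip3 window is shown as the example with the highest expression, at chr10:19015411-19015660 (minus strand), with the NF-kB site in capitals. Of its 2 listed starts, the first whose window held the site was used.
Tnfaip3: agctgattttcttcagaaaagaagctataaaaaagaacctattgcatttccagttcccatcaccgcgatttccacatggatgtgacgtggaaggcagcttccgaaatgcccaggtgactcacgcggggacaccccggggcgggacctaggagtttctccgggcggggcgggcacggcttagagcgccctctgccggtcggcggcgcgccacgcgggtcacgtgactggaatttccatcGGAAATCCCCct
The site began 12 bases before the start.

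Of 19 T-cell activation genes tested, 3 (15.8%) were lower and none was higher, and the median was -0.08. Cd69, an early activation antigen, was at 19.2 and 17.2 CPM against 105 and 153 CPM (-2.83 ± 0.62, adjusted p = 0.0248). Tnfsf11, encoding RANKL, was at 5.78 and 5.55 CPM against 50.9 and 25.6 CPM (-2.75 ± 0.73, adjusted p = 0.0488), and Ctla4, an inhibitory receptor, was at 2.85 and 3.02 CPM against 8.65 and 8.001 CPM (-1.50 ± 0.19, adjusted p = 0.00324). The p21-deficient Lmo2Tg libraries were below both Lmo2Tg libraries for each of the 3, which were picked because they were called. Without the transgene Tnfsf11 was at 8.62 CPM in p21-/- replicate 1 and at 60.9 CPM in replicate 2, the latter above both Lmo2Tg libraries.

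Of 35 interferon-stimulated genes tested, 11.4% were called, against 6.94% of all genes. Of these, 2 were lower (Cxcl10 and Irf1) and 2 were higher, Stat2 among them, and the list median was 0.10. Irf1, an interferon-induced transcription factor, was at 116 and 109 CPM against 279 and 220 CPM (-1.15 ± 0.22, adjusted p = 0.0140). Stat2, a subunit of the interferon-activated factor ISGF3, was at 73.1 and 68.4 CPM against 55.0 and 46.0 CPM (0.49 ± 0.12, adjusted p = 0.0350).

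Molecular chaperones were the other list with a high share of decreases. Of 33 tested heat-shock proteins and chaperones, 14 (42.4%) were lower, 2 of them by more than 2-fold, none was higher, and the median was -0.34. Hspa5, which encodes BiP, the main chaperone of the endoplasmic reticulum, was at 399 and 404 CPM in p21-deficient Lmo2Tg and at 1107 and 1059 CPM in Lmo2Tg libraries (-1.43 ± 0.20, adjusted p = 0.00445). Dnajb4, a cytosolic co-chaperone, was at 39.1 and 39.2 CPM against 105 and 124 CPM (-1.55 ± 0.24, adjusted p = 0.00587). Hsph1, the nucleotide exchange factor HSP105, was at 97.6 and 94.4 CPM against 192 and 184 CPM (-0.97 ± 0.12, adjusted p = 0.00294). Dnaja1, another co-chaperone, fell by 0.86 on the log2 scale (adjusted p = 0.00113). These genes were picked as the called members with the largest fold changes, so the separation of their groups follows from that choice. The number called lower ranged from 3 to 17 when 1 library was left out and was 7 in a fit of the 4 transgenic libraries alone.

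The Hspa5 promoter is shown as an example that holds the element marked below. The gene is among the most abundant that fell by more than 2-fold. The window lies at chr2:34771840-34772089 (plus strand), and capitals mark the endoplasmic reticulum stress element, CCAAT and CCACG set 9 bases apart, which ATF6 and NF-Y bind.
Hspa5: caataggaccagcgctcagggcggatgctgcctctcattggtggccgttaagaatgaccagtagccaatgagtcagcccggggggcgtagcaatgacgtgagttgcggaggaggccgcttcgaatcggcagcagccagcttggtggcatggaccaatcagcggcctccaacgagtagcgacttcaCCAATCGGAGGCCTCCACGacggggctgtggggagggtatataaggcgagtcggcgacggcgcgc
This element was in 0.13% of all listed promoters, and among the listed chaperones it was in those of Hspa5 and Hsp90b1. It was in 15 of the 9035 tested genes with a promoter (0.166%). Of the 327 called lower it was in 1 (0.306%), Hspa5, and of the 303 called higher in 0. The heat-shock element bound by HSF1, searched as GAA and TTC alternating over 3 units with 2 bases between units, was in the promoters of 3 of 27 listed chaperones, 0.454% of tested genes and 0.514% of all genes.

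Lists of RNA processing and protein synthesis had medians slightly below that of all genes. Among 95 tested spliceosome genes 11 (11.6%) were lower and none was higher, with a median of -0.20. Tra2b, a splicing activator, was at 229 and 258 CPM against 440 and 463 CPM (-0.89 ± 0.13, adjusted p = 0.00469), and its paralogue Tra2a fell by 0.75 on the log2 scale (adjusted p = 0.00708). Srsf5, a serine and arginine-rich splicing factor, fell by 0.82 (adjusted p = 0.0135), and Bud31 by 0.68 (adjusted p = 0.00988), which overlaps Ptcd1. Of 60 ribosome biogenesis genes 9 (15%) were lower, with a median of -0.20, including Taf1d, Pno1, Mrto4 and Ddx21 (-0.75, -0.57, -0.50 and -0.48).

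Of 42 translation initiation factors 4 (9.52%) were lower (median -0.19). Eif1, which helps to select the start codon, was at 218 and 269 CPM against 435 and 504.4 CPM (-0.95 ± 0.15, adjusted p = 0.00745), while Eif4a2, Eif5 and Eif4g2 fell by 0.59, 0.54 and 0.43. Of 81 cytosolic ribosomal protein genes 80 had a negative fold change (median -0.23), and 3 (3.7%) were called, namely Rps2, Rps15a and Rpl35a (-0.78, -0.37 and -0.32). The share of negative fold changes over all genes tested was 47.28%. Rps2 lies 4.37 Mb from Cdkn1a on chromosome 17. Proteasome subunits had a median of -0.16, and none of 44 was called by edgeR, although 9 had an unadjusted p under 0.05, DESeq2 called 3 lower and limma-voom called 0. For these 5 lists the median stayed negative in all 15 alternative analyses, but the counts moved widely. Between 0 and 23 spliceosome, 0 and 16 ribosome biogenesis, 0 and 10 initiation factor and 0 and 28 ribosomal protein genes were called lower. The 0 was without p21-deficient Lmo2Tg replicate 1 in each of these 4 lists, and DESeq2 gave 23, 16, 10 and 22. The 28 was without wild-type replicate 3.

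In the 3 lists of DNA replication, mitosis and G1/S genes, no member was called by edgeR. Of 54 DNA replication genes 44 had a negative fold change and the median was -0.15, while 9 had an unadjusted p under 0.05 and DESeq2 called 2 lower. Pcna, the sliding clamp of DNA polymerase, was at 385 and 463 CPM against 540 and 631 CPM (-0.47 ± 0.13, adjusted p = 0.0519), and Mcm6, a subunit of the replicative helicase, was at 644 and 764 CPM against 718 and 824 CPM (-0.13, adjusted p = 0.460). Of 39 genes of mitosis and G2/M none was called (median -0.22, 7 with an unadjusted p under 0.05). Mki67, the proliferation antigen Ki-67, was at 853 and 1141 CPM against 1097 and 1251 CPM, and the ranges overlapped (-0.24 ± 0.16, adjusted p = 0.393). Top2a, topoisomerase II alpha, differed by -0.15 ± 0.16 (adjusted p = 0.591). DESeq2 called 3 mitosis genes lower and 1 higher, and limma-voom called 0 in either list.

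The G1/S list of cyclins, CDKs and Rb-E2F genes also had no called member among 29 (median -0.08, 7 with an unadjusted p under 0.05, and 1 each way by DESeq2). Cdk6 was at 1759 and 1537 CPM against 1653 and 1368 CPM, and the 2 groups overlapped (0.13 ± 0.14, adjusted p = 0.616). Rrm1, the large subunit of ribonucleotide reductase, differed by -0.29 ± 0.13 (adjusted p = 0.180). Of 7 CDK inhibitors Cdkn1a was the called one. Cdkn2d, which inhibits CDK4 and CDK6, was at 49.7 and 54.6 CPM against 70.9 and 67.2 CPM and missed the threshold (-0.40 ± 0.11, adjusted p = 0.0540), and Cdkn1b, encoding p27, was at 158 and 154 CPM against 165 and 210 CPM (-0.27, adjusted p = 0.328).

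Of 30 p53 targets other than Cdkn1a, 3 were lower and 1 was higher (13.3% called, against 6.94% of all genes), with a median of 0.01. The 3 that fell, Plk2, Plk3 and Gadd45a, are also known as genes induced by growth factors or stress. Plk3, a polo-like kinase, was at 3.35 and 3.14 CPM against 20.3 and 16.8 CPM (-2.51 ± 0.43, adjusted p = 0.00942), Plk2 fell by 3.67 on the log2 scale (adjusted p = 0.0434) and Gadd45a by 1.38 (adjusted p = 0.0219). Polk, a translesion DNA polymerase, was at 29.1 and 26.1 CPM against 18.1 and 18.9 CPM (0.57 ± 0.11, adjusted p = 0.0167).

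In the BCL2 family, which sets the threshold for apoptosis, 2 genes were lower and 1 was higher of 15 tested (20% called). Mcl1, an anti-apoptotic member, was at 273 and 276 CPM in p21-deficient Lmo2Tg and at 535 and 524 CPM in Lmo2Tg libraries (-0.95 ± 0.12, adjusted p = 0.00325). Bcl2l11, which encodes the pro-apoptotic BIM, was at 71.4 and 64.7 CPM against 140 and 99.9 CPM (-0.82 ± 0.14, adjusted p = 0.00988). Bcl2l2, encoding the anti-apoptotic BCL-W, was at 14.6 and 12.7 CPM against 8.88 and 8.34 CPM (0.66 ± 0.14, adjusted p = 0.0215), and overlaps another gene. Members of both functions therefore fell, and the list median was -0.05.

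**Figure D4:**
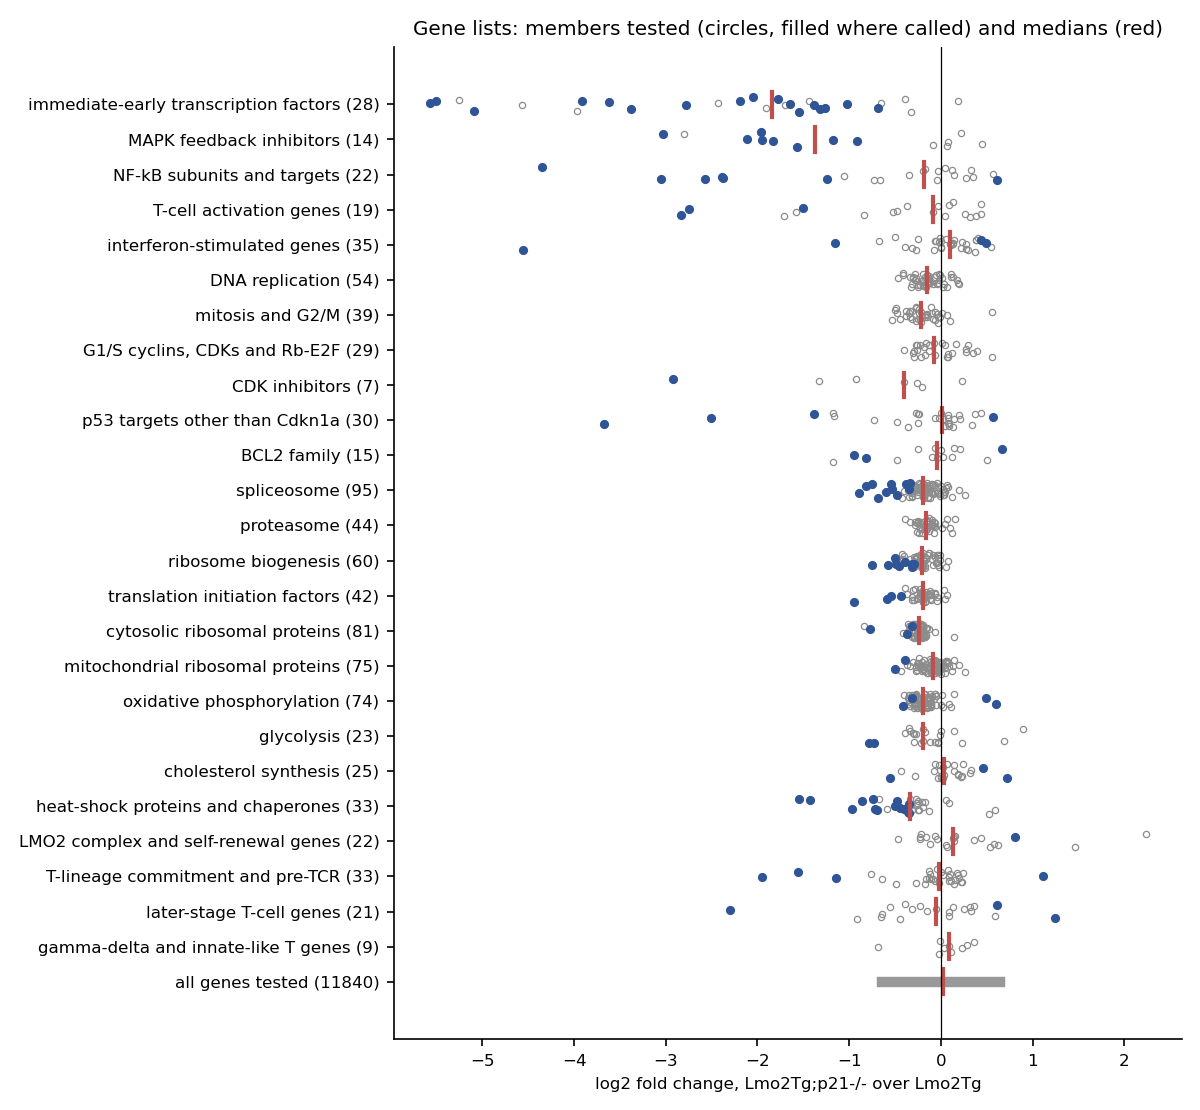
Log2 fold change, p21-deficient Lmo2Tg against Lmo2Tg, of every tested member of each gene list (points, with called members filled) and the list median (red line). The grey bar in the bottom row runs from the lower to the upper 5% point of all genes tested. The medians of the immediate-early (-1.84) and MAPK feedback (-1.37) lists lie farthest from 0.

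The list of LMO2 complex and self-renewal genes had a called share of 4.55%, near the 6.94% of all genes tested. Lmo2 itself was at 85.4 and 107 CPM in p21-deficient Lmo2Tg and at 41.4 and 100 CPM in Lmo2Tg libraries, a spread between libraries A and B that exceeded the genotype difference (0.44 ± 0.30, adjusted p = 0.385). Without library B the difference was 1.22 (adjusted p = 0.00881), and without library A it was -0.07. Lyl1, the LMO2 partner, was at 86.7 and 72.0 CPM against 66.6 and 36.2 CPM (0.63 ± 0.22, adjusted p = 0.112). Hhex, a homeobox gene required for self-renewal of Lmo2-transgenic thymocytes, was at 86.9 and 77.6 CPM against 86.6 and 69.9 CPM (0.07 ± 0.15, adjusted p = 0.809).

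Kit, the stem cell factor receptor, was at 271 and 204 CPM in p21-deficient Lmo2Tg and at 199 and 129 CPM in Lmo2Tg libraries (0.53 ± 0.20, adjusted p = 0.125). Nfe2, a haematopoietic bZIP factor, was the called member, at 193 and 146 CPM against 121 and 73.0 CPM (0.81 ± 0.20, adjusted p = 0.0388). Of 22 tested LMO2 complex and self-renewal genes 1 was higher and none was lower, with a median of 0.14.

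In the list of T-lineage commitment and pre-T-cell receptor genes, 3 were lower and 1 was higher of 33 tested (12.1% called, median -0.02). Id2, an inhibitor of E proteins, was at 9.28 and 8.57 CPM against 37.7 and 31.0 CPM (-1.95 ± 0.29, adjusted p = 0.00565). Hes1, a Notch target, was at 67.7 and 67.8 CPM against 107 and 291 CPM (-1.55 ± 0.35, adjusted p = 0.0264), and Nrarp, another Notch target, at 1.71 and 2.05 CPM against 4.88 and 3.49 CPM (-1.14 ± 0.27, adjusted p = 0.0327). Hes1 was far higher in Lmo2Tg library B than in library A. Rag2, which encodes a subunit of the V(D)J recombinase, was at 25.4 and 36.5 CPM against 14.3 and 14.4 CPM (1.11 ± 0.21, adjusted p = 0.0147), still below its 62.0 to 97.3 CPM in the 5 libraries without the transgene.

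Genes of later T-cell stages were also divided, with 2 higher and 1 lower of 21 (14.3% called). S1pr1, the receptor for thymic egress, was at 3.997 and 3.86 CPM against 28.3 and 10.4 CPM (-2.30 ± 0.52, adjusted p = 0.0265). Ccr7, a chemokine receptor of naive T cells, was at 3.35 and 4.05 CPM against 1.78 and 1.37 CPM (1.24 ± 0.29, adjusted p = 0.0318), and Ltb, encoding lymphotoxin beta, at 62.6 and 49.1 CPM against 39.7 and 33.1 CPM (0.62 ± 0.13, adjusted p = 0.0243). None of 9 gamma-delta and innate-like T genes was called by edgeR, DESeq2 or limma-voom (1 had an unadjusted p under 0.05), and Sox13 differed by 0.37 ± 0.16 (adjusted p = 0.186).

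Called shares in the metabolic lists were 2.67% (mitochondrial ribosome), 5.41% (oxidative phosphorylation), 8.7% (glycolysis) and 12% (cholesterol synthesis), against 6.94% of all genes. Oxidative phosphorylation genes had 2 higher (Ndufb2 and Ndufab1) and 2 lower (Uqcrfs1 and Uqcrh) of 74 tested, all by 0.60 or less on the log2 scale, with a median of -0.19. Of 75 mitochondrial ribosomal protein genes 2 were lower, Mrps30 and Mrpl9 (-0.50 and -0.39). Of 23 glycolysis genes 2 were lower, the glucose transporter Slc2a1 (-0.78 ± 0.18, adjusted p = 0.0280) and hexokinase Hk2 (-0.73 ± 0.16, adjusted p = 0.0248). Among 25 cholesterol synthesis genes the enzymes Msmo1 and Hmgcs1 were higher (0.72 and 0.46) and Insig1, which restrains the pathway, was lower (-0.55).

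Genes near Cdkn1a held a larger share of calls than genes elsewhere. Within 5 Mb of Cdkn1a 35 of 196 tested genes (17.9%) were called, 16 higher and 19 lower. At 5 to 10 Mb 16 of 137 (11.7%) were called, on chromosome 17 beyond 10 Mb 9 of 299 (3.01%), and on all other chromosomes 761 of 11207 (6.79%). In p21-/- against wild-type cells 8 of the 196 nearest genes (4.08%) were called, and all 8 were called in the same direction with the transgene. In that comparison 2 of 137 genes (1.46%) were called at 5 to 10 Mb and 0 of 299 beyond 10 Mb. On all other chromosomes 2 of 11207 (0.0178%) were called. Loss of p21 and linkage to the targeted allele cannot be told apart in these groups.

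Anks1, a gene near Cdkn1a, was at 86.7 and 80.7 CPM against 291 and 232 CPM (-1.64 ± 0.14, adjusted p = 0.000196), and in p21-/- cells at 121 and 92.3 CPM against 244 to 254 CPM in wild-type cells (-1.23, adjusted p = 0.00185). Glo1, encoding glyoxalase 1, was at 145 and 142 CPM against 60.8 and 55.2 CPM (1.31 ± 0.09, adjusted p = 5.51e-05) and rose in the same way without the transgene, to 110 and 120 CPM from 51.1 to 55.8 CPM (1.09, adjusted p = 0.000146). Dnah8, a dynein heavy chain gene, rose by 1.57 ± 0.18 with and by 1.03 without the transgene (adjusted p = 0.00177 and 0.0411). The p21-deficient libraries of either background lay on the same side of their controls for all 3 genes, which were chosen after their values were seen.

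**Figure D5:**
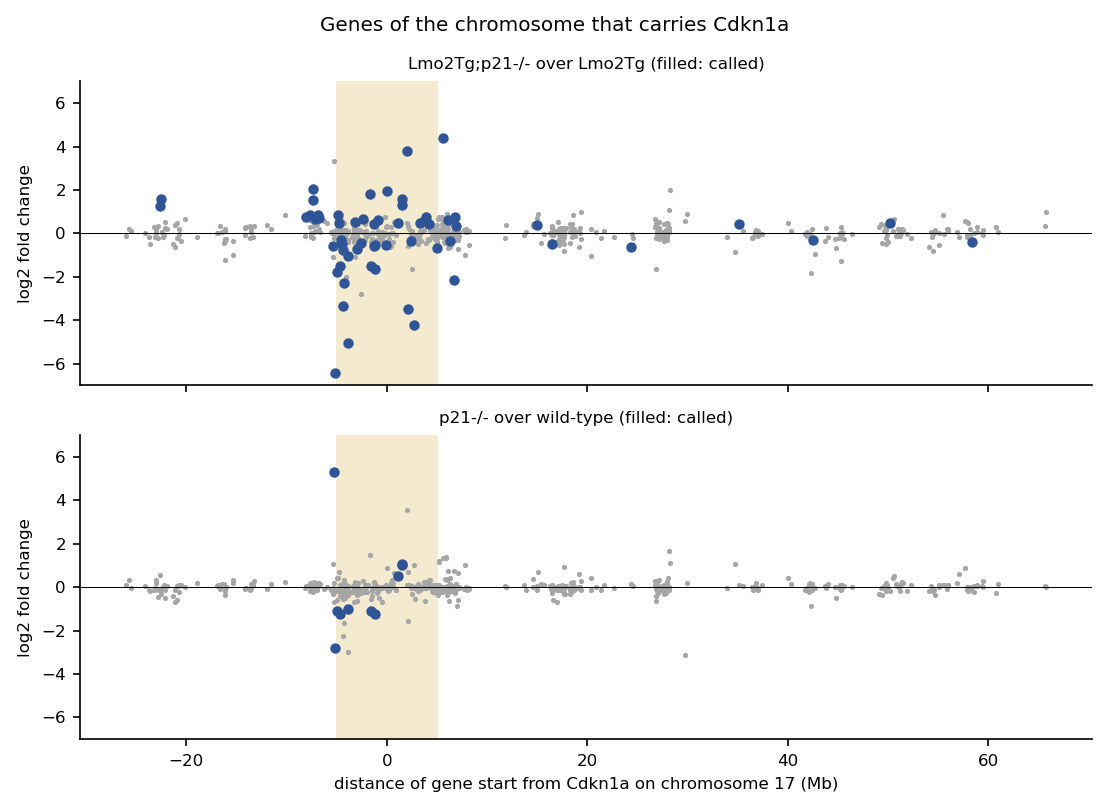
Log2 fold change of genes on chromosome 17 by distance from Cdkn1a in Mb, for p21-deficient Lmo2Tg against Lmo2Tg and for p21-/- against wild-type, with called genes coloured and the 5 Mb on either side shaded. Called genes crowd into the shaded part (35 of 196 with the transgene and 8 of 196 without it).

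Rnps1, which lies near Cdkn1a and encodes a factor of the exon junction complex, has a near-identical copy. Gm9825 is 99.41% identical to Rnps1 over 843 of 843 bases, and how reads were shared between gene and copy was not tested. Rnps1 alone was lower by -1.50 (adjusted p = 0.000122), whereas with gene and copy summed the difference was -0.55 ± 0.11 (adjusted p = 0.0158). Summed Rnps1 reads were 1071 and 1424 in p21-deficient Lmo2Tg against 1525 and 1822 in Lmo2Tg libraries. In p21-/- against wild-type cells Rnps1 alone differed by -1.23, and the sums differed by -0.34 and did not pass the test (adjusted p = 0.984). The rise of Gm9825 and the fall of Rnps1 alone are therefore uncertain as changes in transcription.

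p21 loss without the transgene altered far fewer genes. In p21-/- against wild-type cells 13 genes (0.11%) were called, 6 higher (0.0507%) and 7 lower (0.0591%), and 391 had an unadjusted p under 0.05 against 3021 with the transgene. Of the 13, 12 were also called with the transgene, all in the same direction, which is 12 of the 822. The difference between the 2 effects was called for 163 genes (1.38%), 33 of them higher (0.279%) and 130 lower (1.1%) in the presence of the transgene, and 161 of the 163 were called between the transgenic groups. Of the 130, 12 belonged to the immediate-early or MAPK feedback lists. This interaction rested on single libraries. The count was 0 without p21-deficient Lmo2Tg replicate 1, wild-type replicate 1 or wild-type replicate 3, 1 without p21-deficient Lmo2Tg replicate 2, 18 without p21-/- replicate 2, 63 without Lmo2Tg library A, 64 without wild-type replicate 2 and 449 without p21-/- replicate 1.

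Hspa5 was one of the genes with a called interaction. It was at 455 and 729 CPM in p21-/- and at 435 to 612 CPM in wild-type cells, ranges that overlapped (0.17, adjusted p = 0.984), against the fall of 1.43 on the log2 scale with the transgene (interaction -1.60 ± 0.26, adjusted p = 0.0300). Mcl1 likewise was at 265 and 330 CPM in p21-/- and 235 to 294 CPM in wild-type cells (interaction -1.08 ± 0.17, adjusted p = 0.0244). Dusp5 was at 33.0 and 113 CPM in p21-/- and 41.7 to 67.1 CPM in wild-type cells (interaction -3.38 ± 0.57, adjusted p = 0.0300). For all 3 genes Lmo2Tg libraries were the highest of the 9.

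The Lmo2Tg libraries enter both the comparison with p21-deficient Lmo2Tg cells and that with wild-type cells, so the 2 comparisons share these libraries and their values are only set side by side. Against wild-type cells 4329 genes (36.6%) were called in Lmo2Tg cells. The log2 fold change in Lmo2Tg against wild-type and then in p21-deficient Lmo2Tg against Lmo2Tg was 4.16 and -5.50 for Nr4a3, 2.95 and -3.04 for Dusp5, 2.23 and -3.06 for Tnfaip3, 1.04 and -1.43 for Hspa5, 0.97 and -0.95 for Mcl1 and -2.33 and 1.11 for Rag2. The same pair was 8.38 and 0.44 for Lmo2, 4.60 and 0.07 for Hhex and 3.77 and 0.63 for Lyl1.

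Marker lists of other cell types were examined in the 4 libraries. The highest by mean level were Pecam1, a gene of endothelial and some blood cells, at 197 to 263 CPM, and Gzma, a granzyme gene, at 77.9 to 128 CPM, and neither was called. For macrophages and monocytes the 10 markers summed to 18.98 to 26.6 CPM in p21-deficient Lmo2Tg and 14.5 to 15.3 CPM in Lmo2Tg libraries. Of the 5 tested, 1 was lower and 1 was higher, the latter being Lyz2 (13.0 and 17.9 against 5.77 and 6.15 CPM, 1.38, adjusted p = 0.00308), while Cd14 was at or under 0.0714 CPM in all 4. No marker of CD4+CD8+ thymocytes, B cells, neutrophils, dendritic cells, natural killer or innate lymphoid cells, erythroid cells or thymic stroma was called by edgeR. The stromal list summed to 236 to 279 CPM against 217 to 236 CPM, with Krt5, Foxn1 and Pdgfra at 0. The part of these cells in the results above was not tested.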

How the data were processed

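RNA-seq was performed on DN3 thymocytes sorted from mice of 4 genotypes. The authors deposited raw read counts per gene, which the submitters' processing notes link to STAR 2.4.2a, featureCounts, limma and build mm10, and whether strand was used is not given in the sources used here, so that overlapping genes are uncertain. Besides the genes marked so above, Taf1d, Eif4a2, Dnaja1, Gadd45a, Nrarp and Hmgcs1 overlap other annotated genes. Columns were matched to genotypes by name. 1 column, whose name follows the p21-deficient Lmo2Tg pattern with number 3, matched no labelled sample and was not used. 1 labelled p21-/- sample had no column here. The names of the Lmo2Tg columns are also the descriptions of 2 GFP-low samples, which have columns of their own in another table, so they were assigned to the group only.

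Counts were filtered with filterByExpr (minimum count 10, minimum total 15), scaled by TMM and fitted with edgeR 4.0.16 in R 4.3.3 (quasi-likelihood, all 9 genotype libraries, 1 shared spread, no covariates), and p-values were adjusted by Benjamini-Hochberg over all genes tested. The interaction was the p21 effect with the transgene minus that without it. Alternatives used RLE size factors, DESeq2 1.42.0, limma 3.58.1 (voom), other filters, the 4 transgenic libraries alone and each library left out. On simulated data for p21-deficient Lmo2Tg against Lmo2Tg with 11691 genes, the test recovered 73.1% of 197 genes changed by a log2 fold of 1, with 13 unchanged genes called, and 90.9% of 198 changed by 2, with 9 unchanged genes called. Replicates differed by more than sampling noise (chi-square per degree of freedom 2.63 to 18.3), so none was merged. Intervals on low counts cover counting error only.

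Positions came from GENCODE M21, which matched 11808 tested genes (99.73%), and promoters from RefSeq (GRCm38.p6). Named genes were Cdkn1a, Lmo2, Lyl1, Hhex and Kit, the 10 largest called changes each way with a mean of at least 1 CPM and no overlap, and up to 4 called members per list, or the 2 most abundant where fewer than 2 were called. Klf4, Fosb, Junb, Anks1, Glo1, Dnah8, Rnps1 and the NF-kB genes with a promoter site were chosen after their values were seen. Some genes that the rule names are not reported here. The comparison and gene lists were chosen with earlier results of these data known.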

Additional observations from a re-analysis of the deposited data

Results flagged for a closer look

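The p21 effect differed with and without the transgene, by the test of the difference itself, for 163 genes, as described in the report. Among the named genes the difference of the 2 log2 fold changes passed that test for the targeted gene Cdkn1a (-1.56) and for the genes below, given as values.

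In the immediate-early and MAPK feedback lists these were Nr4a3 (-7.98), Fosl2 (-6.60), Maff (-4.38), Dusp5 (-3.38) and Spry1 (-2.21). Among NF-kB, activation and interferon genes they were Tnfaip3 (-3.46), Ctla4 (-1.31), Irf1 (-1.43) and Cxcl10 (-7.67), and Apol8 differed by -8.91. The values of Apol8 and Cxcl10 rest on few reads in the p21-deficient Lmo2Tg libraries and depend on the prior count of the fit.

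Among chaperones the values were -1.67 for Dnajb4, -1.60 for Hspa5, -1.08 for Hsph1 and -0.94 for Dnaja1. Among genes of splicing, ribosome biogenesis and translation they were -0.92 for Tra2b, -0.78 for Tra2a, -0.93 for Taf1d and -1.03 for Eif1. Plk3 differed by -2.85, Mcl1 by -1.08 and Id2 by -2.30. The effect was more positive with the transgene for Clec11a (2.83), Ccr7 (2.14) and Zfp760 (2.09), the last of which lies 7.38 Mb from Cdkn1a. None of these passed the test when p21-deficient Lmo2Tg replicate 1, wild-type replicate 1 or wild-type replicate 3 was left out, since no gene of the whole table did.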

How the results depend on the processing

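All 822 called genes kept their direction in every alternative in which they were tested, which is no independent support because the alternatives use the same libraries. The count of calls was 806 with RLE size factors, 1051 with DESeq2, 711 with limma-voom, 1185 with no filter on low counts and 817 with a minimum of 1 CPM. A fit of the 4 transgenic libraries alone called 404 genes, 125 higher and 279 lower, with 22 higher past 2-fold, and 7 chaperones lower. At a threshold of 0.01 the counts were 172 in all, 49 higher and 123 lower, and past 2-fold 97 in all, 19 higher and 78 lower. With no filter 620 genes were called higher and 520 in the interaction, which DESeq2 called for 457. Leaving out 1 library gave 60 to 1128 calls, 20 to 510 higher and 40 to 618 lower, 48 to 235 past 2-fold, 19 to 96 higher and 29 to 186 lower past 2-fold, and 0 to 449 interaction calls, with 2 to 21 immediate-early, 1 to 9 MAPK feedback and 3 to 17 chaperone genes lower. In these fits a lone library is assumed to vary like the other groups. The share of calls that were higher, 48.3%, was 30.9% with the 4 libraries alone, 28.5% at 0.01, 17.4% without Lmo2Tg library B and 33.3% without p21-deficient Lmo2Tg replicate 1, and the cause was not tested. Summing near-identical copies was chosen after seeing the data. No paired analysis was possible because the labels number the Lmo2Tg samples 2 and 3 and the p21-deficient Lmo2Tg samples 1 and 2, so that the groups share only 1 number, and the Lmo2Tg columns were not tied to single samples. At this depth genes with few reads are limited by counting error.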
